A study of Rattus norvegicus with 4 samples.

Results

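The genes of glutathione synthesis, breakdown and use, together with classical targets of the transcription factor NRF2, were measured in rat oligodendrocyte precursor cells (OPCs) after silencing of the membrane receptor GPR17. The set holds 10 genes, Slc7a11, Gclc, Gclm, Gss, Ggt1, Gsr, Gpx1, Gpx4, Nqo1 and Hmox1, out of 16568 genes that could be named on the array. They were chosen for their function, with earlier results of these data known. Their RefSeq transcripts are carried by 14 probes, 1 probe for each of 6 genes and 2 probes for each of 4. Of these, 12 probes of 9 genes were well above background on enough arrays to be tested, and Gclm was not.

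OPCs came from cortices of Sprague-Dawley rats at postnatal day 2 and proliferated for 3 days with bFGF and PDGF before they were moved to a differentiating medium with thyroid hormone. All samples then received 50 nM of RNA with the same lipid reagent, either a pool of siRNAs against rat Gpr17 (siGPR17) or a pool without a target (siNEG), and were collected 48 h afterwards, which was day in differentiation 2. RNA of each sample was hybridized to its own one-color Agilent array, 4 in all with 2 for siNEG and 2 for siGPR17, after labelling of 100 ng of total RNA. The series calls these samples independent, but the labels do not say whether they are separate cultures. The cells of a culture come from pooled pups, and a pool of siRNAs lowers the transcript without removing the gene.

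Glutathione is a tripeptide of glutamate, cysteine and glycine that keeps the cytosol reduced. Cystine enters through the exchanger encoded by Slc7a11, glutamate-cysteine ligase (Gclc and Gclm) and glutathione synthetase (Gss) build the tripeptide, peroxidases spend it on peroxides, glutathione reductase (Gsr) regenerates it, and gamma-glutamyltransferase (Ggt1) breaks it down outside the cell. NRF2, encoded by Nfe2l2, is held back by KEAP1 and, once released, pairs with a small MAF protein on antioxidant response elements of many of these genes. Oligodendrocyte precursors are known for a high iron content, a modest glutathione pool and sensitivity to oxidative stress.

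On each array 26997 to 28244 of 45598 non-control probes were well above background by the scanner software, 0 were saturated, and the 75th percentile of the intensities lay between 564.9 and 624.1 units. Replicate arrays differed with an SD, in log2 units over the tested probes, of 0.37 for siNEG and 0.29 for siGPR17. All arrays shared 1 slide. The second number of their slide position was 4 for both siNEG arrays and 3 for both siGPR17 arrays, so this part of the position and the treatment cannot be told apart. A split of 2 against 2 arrays can be made in 3 ways, so an exact two-sided permutation test cannot go below p = 0.333, and p-values below come from limma, fitted across all 28016 tested probes with Benjamini-Hochberg adjustment. They measure the spread between these samples, which are not stated to be separate cultures. A probe passes where it differs by a fold of 1.5 with an adjusted p under 0.07, the thresholds of the study. Signals are normalized intensities on a linear scale, and differences are log2 of siGPR17 over siNEG with their standard error (SE).

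The silenced gene itself, measured by the probe A_64_P018212, checked the labels. Gpr17 had signals of 1107.3 and 1113.0 on the siNEG arrays and of 652.3 and 639.4 on the siGPR17 arrays. Both siGPR17 arrays lay below both siNEG arrays, with a difference of -0.78 (SE 0.085, adjusted p = 0.209 in limma), which missed the adjusted threshold. The adjusted p of Gpr17 was 0.0216 after normexp, a model-based background correction of the raw spot signals, and 0.0152 with the trend and robust options of limma, which let the spread depend on brightness and limit the weight of outlying probes.

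The regions upstream of the genes are shown because the antioxidant response element is the site that NRF2 binds. RefSeq promoter windows of the assembly GRCr8 were found for 8 of the 10 genes, 10 windows in all, and the 250 bases before each start were searched for the core of the element, TGACNNNGC, on both strands. Gclm, the modifier subunit of glutamate-cysteine ligase, held the single match, TGACTAAGC, which lies on the strand opposite to the gene with 163 bases between it and the start. It is in capitals in the first line, as it reads on the printed strand. Gss, Slc7a11 and Ggt1, whose siGPR17 arrays both lay above siNEG, are printed beside it and hold none. All lines read 5′ to 3′ on the strand of the gene.
Gclm (chr2:213031885-213032134, + strand): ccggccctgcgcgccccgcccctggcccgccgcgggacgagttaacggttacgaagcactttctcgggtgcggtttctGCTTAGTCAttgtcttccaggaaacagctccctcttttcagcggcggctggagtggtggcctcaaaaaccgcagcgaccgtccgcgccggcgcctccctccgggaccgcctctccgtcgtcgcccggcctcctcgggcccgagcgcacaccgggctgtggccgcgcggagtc
Gss (chr3:164538307-164538556, - strand): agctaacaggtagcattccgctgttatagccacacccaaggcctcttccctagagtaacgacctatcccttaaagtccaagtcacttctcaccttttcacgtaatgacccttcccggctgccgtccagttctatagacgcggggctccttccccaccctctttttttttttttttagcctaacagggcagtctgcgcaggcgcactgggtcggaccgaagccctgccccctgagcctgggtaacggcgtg
Slc7a11 (chr2:136668265-136668514, - strand): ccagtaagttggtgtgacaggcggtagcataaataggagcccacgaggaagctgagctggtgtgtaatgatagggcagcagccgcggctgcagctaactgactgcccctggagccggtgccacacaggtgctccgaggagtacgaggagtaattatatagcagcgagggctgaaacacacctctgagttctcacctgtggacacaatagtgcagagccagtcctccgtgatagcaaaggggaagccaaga
Ggt1 (chr20:13095105-13095354, - strand): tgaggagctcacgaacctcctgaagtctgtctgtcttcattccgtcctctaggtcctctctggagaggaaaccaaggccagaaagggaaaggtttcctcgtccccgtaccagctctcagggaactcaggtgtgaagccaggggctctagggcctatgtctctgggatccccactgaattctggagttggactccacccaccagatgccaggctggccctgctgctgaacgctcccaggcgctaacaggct

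The core is a loose motif, and 10.1% of all 33469 windows of the table hold it. The AP-1 motif TGANTCA, which resembles the core and is held by 6.34% of windows, was in none of the 10 windows, so no match overlapped it. The windows of Gclc, Gss, Ggt1, Gpx1, Gpx4, Slc7a11 and Nqo1 lack these letters, which says nothing of elements farther away. A match is a description of letters and not evidence that NRF2 sits there.

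Cystine uptake is the entry to the pathway. Slc7a11, the light chain of the cystine-glutamate exchanger, had signals of 71.0 and 75.1 on the siNEG arrays and of 95.2 and 111.8 on the siGPR17 arrays of the probe A_42_P576446. The siGPR17 arrays lay above the siNEG arrays without overlap, by 0.50 on the log2 scale (SE 0.12, 95% interval 0.17 to 0.83, adjusted p = 0.225 in limma), which was 0.32 after normexp. The second probe, A_64_P041166, was well above background on 0 of the 4 arrays, so no fold is given for it. In bulk samples of this kind, a change in the share of a cell type and a change in the RNA of each cell cannot be told apart.

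Glutamate-cysteine ligase is the rate-limiting enzyme of the synthesis. Its catalytic subunit Gclc had signals of 3457.8 and 3881.6 in siNEG and of 3762.1 and 3755.1 in siGPR17 OPCs, so the siGPR17 arrays lay between the siNEG arrays. The difference was 0.04 (SE 0.10, 95% interval -0.24 to 0.32, adjusted p = 0.876 in limma), an interval that stays below a fold of 1.5 on either side. Gclm, whose window holds the match to the core printed above, had signals of 7.29 and 6.69 in siNEG and of 15.1 and 9.54 in siGPR17 OPCs. None of these was well above background, and the gene gives neither a fold nor a test.

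Glutathione synthetase, which adds the glycine in the last step, had the smallest p of the 9 genes by their brightest probe. Gss had signals of 471.7 and 468.7 in siNEG and of 638.9 and 658.7 in siGPR17 OPCs. The groups did not overlap, with a difference of 0.46 (SE 0.085, 95% interval 0.23 to 0.70, unadjusted p = 0.00498, adjusted p = 0.210 in limma), a fold of 1.38.

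Gamma-glutamyltransferase splits extracellular glutathione so that its amino acids can be taken up again. Ggt1 had signals of 140.5 and 147.1 in siNEG and of 189.8 and 207.8 in siGPR17 OPCs on its brighter probe, A_44_P219628. The difference was 0.47 (SE 0.098, 95% interval 0.20 to 0.74, adjusted p = 0.214 in limma), without overlap between the groups. Its dimmer probe, A_44_P1081590, had signals of 33.8 and 36.1 in siNEG and of 55.1 and 58.6 in siGPR17 OPCs, also without overlap. That difference was 0.70 (SE 0.095, unadjusted p = 0.00157, adjusted p = 0.209 in limma), a fold of 1.63, and it was the 1 probe of the 12 past a fold of 1.5, which 6.64% of all tested probes reached. The study displays Ggt1 among genes it chose on these same arrays, so this direction is not independent evidence.

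**Figure D1:**
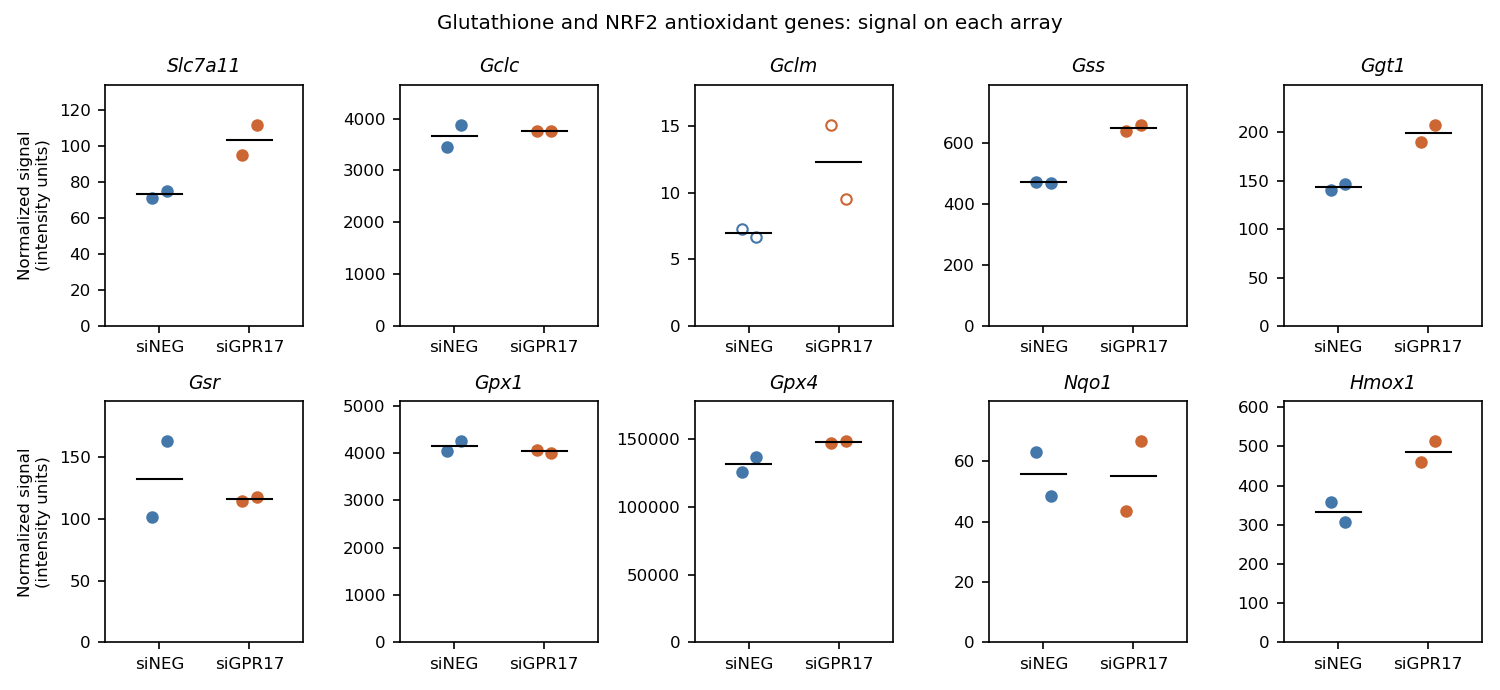
Normalized signal of the 10 genes on each array (vertical axis, intensity units on a linear scale from 0, brightest tested probe of a gene), with siNEG in blue, siGPR17 in orange and the group mean as a bar. Open circles, for Gclm, mark arrays on which the probe was not well above background, and the siGPR17 arrays of Slc7a11, Gss, Ggt1, Gpx4 and Hmox1 lie above both siNEG arrays.

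Glutathione reductase returns oxidized glutathione to its reduced form. Gsr had signals of 101.6 and 163.0 in siNEG and of 114.3 and 117.8 in siGPR17 OPCs. The siGPR17 arrays lay inside the range of siNEG, and the difference of -0.15 (SE 0.25, 95% interval -0.84 to 0.54, adjusted p = 0.793 in limma) was smaller than the gap of 0.68 between the siNEG replicates.

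Both glutathione peroxidases were bright on the array. Gpx1, the cytosolic peroxidase, had signals of 4032 and 4248 in siNEG and of 4059 and 4007 in siGPR17 OPCs on the probe A_42_P805300. Its arrays overlapped, with a difference of -0.04 (SE 0.088, 95% interval -0.28 to 0.20, adjusted p = 0.854 in limma). Scaling on spike-in controls, which moves the difference of every probe by the same amount, gave 0.09, where the median of all tested probes was 0.14. On the second probe, A_44_P1164156, signals of 2585 and 3248 stood against 2552 and 2634, a difference of -0.16 (SE 0.14, adjusted p = 0.599 in limma), also with overlap. Gpx4, the peroxidase that reduces lipid hydroperoxides in membranes, had signals of 125996 and 137016 in siNEG and of 146923 and 148568 in siGPR17 OPCs on the probe A_64_P112467. The siGPR17 arrays lay above the siNEG arrays by 0.17 (SE 0.094, 95% interval -0.09 to 0.43, adjusted p = 0.426 in limma), an interval that includes 0. On the probe A_64_P129796 of Gpx4 the groups overlapped, with a difference of 0.13 (SE 0.12, adjusted p = 0.618 in limma).

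The remaining genes are NRF2 targets outside the glutathione cycle. Nqo1, a quinone reductase often used as a readout of NRF2, had signals of 63.0 and 48.4 in siNEG and of 43.6 and 66.6 in siGPR17 OPCs. The siNEG arrays lay between the siGPR17 arrays, and the difference of -0.03 (SE 0.26, 95% interval -0.76 to 0.69, adjusted p = 0.958 in limma) leaves a fold of 1.5 in either direction within its interval. With spike-in scaling the difference was 0.09, below the median of 0.14 of all tested probes. Hmox1, heme oxygenase, which degrades heme to biliverdin, iron and carbon monoxide, had signals of 359.2 and 305.9 in siNEG and of 459.2 and 512.9 in siGPR17 OPCs. The groups did not overlap, with a difference of 0.55 (SE 0.13, 95% interval 0.20 to 0.90, unadjusted p = 0.0119, adjusted p = 0.220 in limma), a fold of 1.46.

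**Figure D2:**
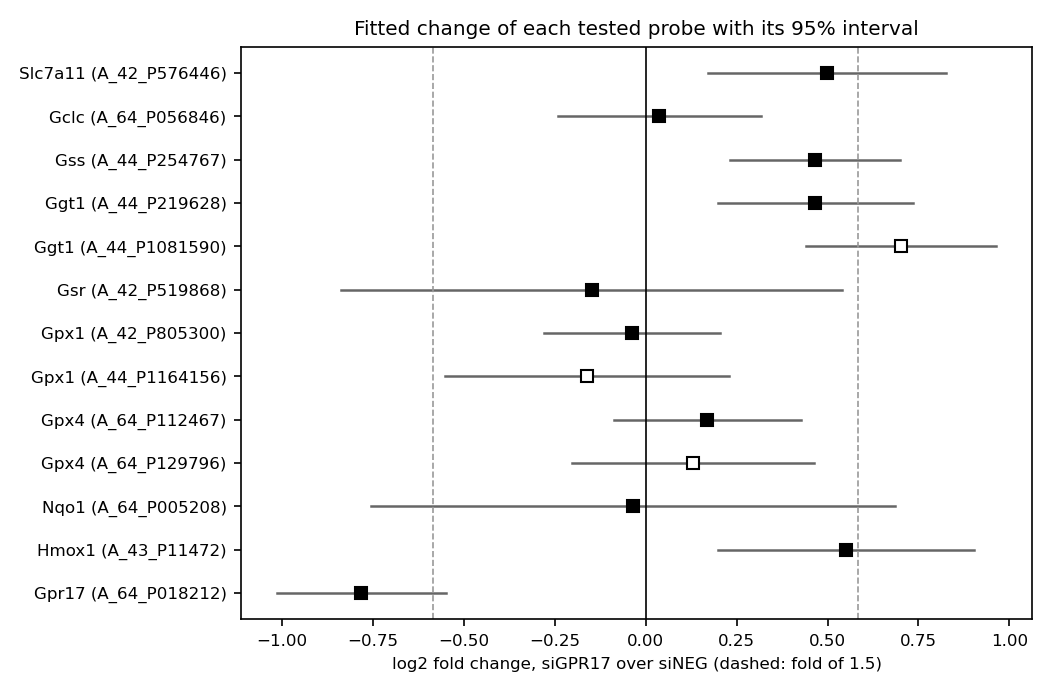
Difference of each tested probe of the set and of Gpr17 (horizontal axis, log2 of siGPR17 over siNEG) with its 95% interval from limma, filled squares for the brightest tested probe of a gene and open squares for the others. Dashed lines mark a fold of 1.5, and the intervals of Slc7a11, Gss, Ggt1 and Hmox1 lie above 0 while those of Gclc, Gsr, Gpx1, Gpx4 and Nqo1 include it.

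Counted together, 0 of the 9 tested genes passed the thresholds, and among all 11656 tested genes 0% did. Of all probes 0.00357% passed, which was 1 probe. Slc7a11, Gss, Ggt1 and Hmox1 had an unadjusted p under 0.05, 4 of 9 genes and all with more signal in siGPR17 OPCs. Over all tested genes 16.2% had such a p, 7.43% with more and 8.73% with less signal in siGPR17 OPCs. In these genes and in Gpx4, 5 of 9, each siGPR17 array exceeded both siNEG arrays, an order found in 28.1% of all genes, while 25.3% had the opposite order. No tested gene of the set had the opposite order. By the brightest probe 0 of 9 reached a fold of 1.5, against 5.08% of all genes. The median difference over the 9 genes was 0.17 and over all genes 0.01, and 6 of 9 against 52% of all genes had more signal in siGPR17 OPCs. After normexp the adjusted p in limma was 0.0588 for Gss, 0.0635 for Hmox1, 0.0690 for Ggt1 and 0.0897 for Slc7a11, and with the trend and robust options it was 0.0435 for Gss, 0.0587 for Hmox1, 0.0908 for Ggt1 and 0.148 for Slc7a11. Under both settings the brightest probe of each of the 4 stayed under a fold of 1.5. The dimmer probe of Ggt1, at a fold of 1.63 as reported, is not part of these counts. The 4 differences between 0.46 and 0.55 exceeded the 95th percentile of all genes, which was 0.43. The genes were chosen with earlier results of these data known, so these shares and ranks are a description and not independent evidence.

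With 1 array left out the lowest differences were 0.38 for Slc7a11, 0.44 for Gss and 0.40 for Ggt1, all without siGPR17 replicate 2. For Hmox1 the lowest was 0.43, without siNEG replicate 2. The groups of these 4 genes do not overlap, so leaving out 1 array could not change their sign. With 1 array in a group the fit takes its spread from the other group, so no count of p-values is read from it.

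**Figure D3:**
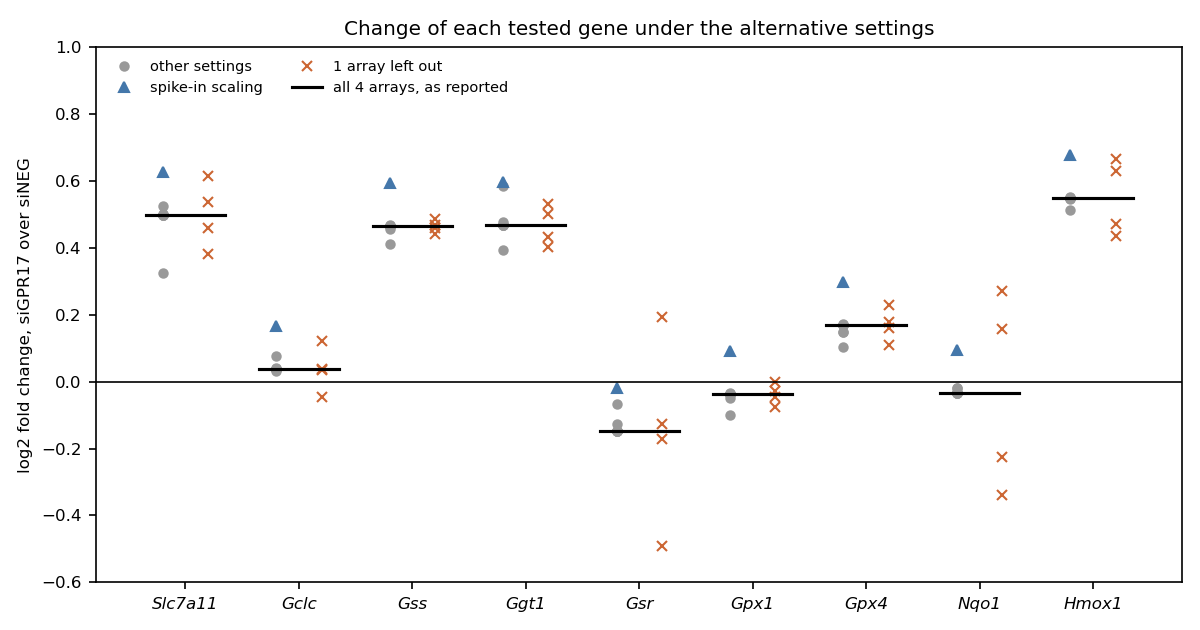
Difference of each tested gene (vertical axis, log2 of siGPR17 over siNEG) under the settings tried, with a bar for the reported value, gray circles and blue triangles for other settings and spike-in scaling, and orange crosses for fits with 1 array left out. Slc7a11, Gss, Ggt1, Gpx4 and Hmox1 stay above 0 under every setting drawn, and Gclc, Gsr, Gpx1 and Nqo1 cross it. Leaving out 1 array could not turn the sign of Slc7a11, Gss, Ggt1, Gpx4 or Hmox1, whose groups do not overlap.

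The genes that control NRF2 were read next, 9 of 10 with a tested probe and none for Nfe2l1. Nfe2l2, the gene of NRF2, had signals of 154.4 and 124.5 in siNEG and of 210.9 and 217.1 in siGPR17 OPCs. Its siGPR17 arrays lay above siNEG by 0.63 (SE 0.14, adjusted p = 0.216 in limma), a fold of 1.54. With the trend and robust options of limma the adjusted p of Nfe2l2 was 0.0682, past both thresholds. After normexp correction its adjusted p was 0.0496, with a difference of 0.51 that is under a fold of 1.5.

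Small MAF proteins are the partners of NRF2 on DNA. Mafg had signals of 2132 and 2265 in siNEG and of 2888 and 3000 in siGPR17 OPCs, a difference of 0.42 (SE 0.091, adjusted p = 0.215 in limma) without overlap. The adjusted p of Mafg was 0.0635 after normexp and 0.0464 with the trend and robust options, under a fold of 1.5 in both. Maff had 58.5 and 56.5 in siNEG and 73.1 and 70.4 in siGPR17 OPCs, a difference of 0.32 (SE 0.088, adjusted p = 0.244 in limma), also without overlap and 0.20 after normexp. The third partner, Mafk, had 57.6 and 64.4 in siNEG and 52.2 and 57.8 in siGPR17 OPCs, with overlap and a difference of -0.15 (SE 0.11, adjusted p = 0.545 in limma).

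None of the genes for proteins that restrain or release NRF2 had an unadjusted p under 0.05 in limma. Keap1, the adaptor that presents NRF2 for degradation, had signals of 393.8 and 381.1 in siNEG and of 439.2 and 439.4 in siGPR17 OPCs, a difference of 0.18 (SE 0.085, adjusted p = 0.370 in limma) without overlap. Cul3, the scaffold of that ubiquitin ligase, differed by 0.09 (SE 0.086, adjusted p = 0.635 in limma). Sqstm1, encoding the autophagy receptor p62 that binds KEAP1, differed by 0.17 (SE 0.13, adjusted p = 0.545 in limma) on its brightest probe, and its 3 probes ranged from -0.08 to 0.18. Leaving out an siNEG array gave 0.02 for Sqstm1 where it was replicate 1 and 0.32 where it was replicate 2. Bach1 and Bach2, repressors that bind the same elements, differed by -0.05 (SE 0.16, adjusted p = 0.898 in limma) and -0.01 (SE 0.096, adjusted p = 0.964 in limma), signs that both turned with normexp. With spike-in scaling both differences were above 0 but below the median of all tested probes. In all, 0 of these 9 control genes passed the thresholds, 3 of 9 had an unadjusted p under 0.05 with more signal in siGPR17 OPCs, as 7.43% of all genes did, and the median of the 9 was 0.17.

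**Figure D4:**
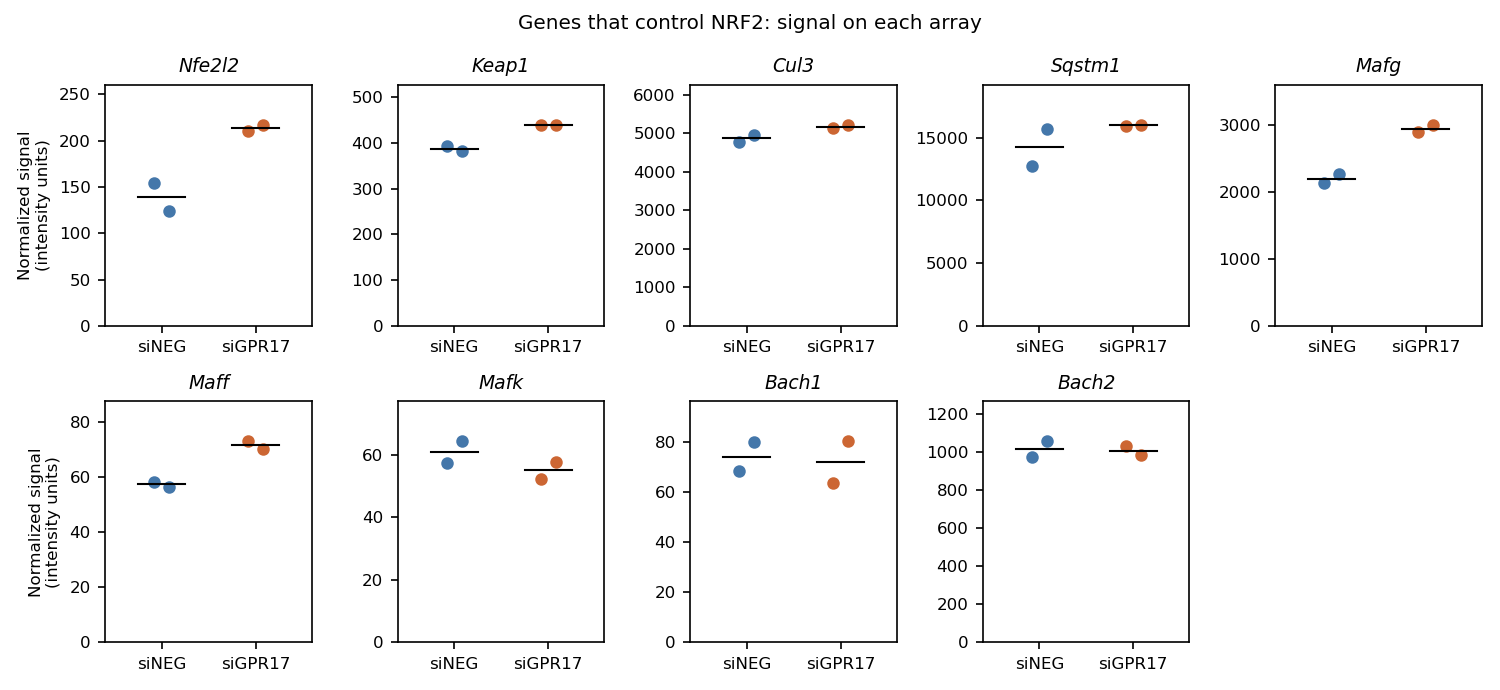
Normalized signal of the 9 tested genes that control NRF2 on each array (vertical axis, intensity units on a linear scale from 0, brightest tested probe), with siNEG in blue, siGPR17 in orange and the group mean as a bar. Both siGPR17 arrays lie above both siNEG arrays for Nfe2l2, Keap1, Cul3, Sqstm1, Mafg and Maff, an order found in 28.1% of all tested genes. The groups overlap for Mafk, Bach1 and Bach2.

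Other NRF2 targets were set beside the 10 genes. Of 29 such genes 26 were tested, 0 passed the thresholds, and their median was -0.06, with 11 above and 15 below 0. An unadjusted p under 0.05 was found for 3 of the 26, which is 11.5%, all with more signal in siGPR17 OPCs, against 7.43% of all genes with more signal and 16.2% in either direction. These were Ephx1, a microsomal epoxide hydrolase, at 0.41 (SE 0.093, adjusted p = 0.217 in limma), Pgd, an NADPH-producing enzyme of the pentose phosphate pathway, at 0.38 (SE 0.094, adjusted p = 0.229 in limma), and Me1, the cytosolic malic enzyme that also yields NADPH, at 0.33 (SE 0.10, adjusted p = 0.261 in limma). The median of this list turned above 0 with normexp, at 0.02, without siNEG replicate 2, at 0.07, and without siGPR17 replicate 1, at 0.04. With spike-in scaling the median of the list was 0.07, below the 0.14 of all tested probes.

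Among the other genes of glutathione synthesis, transport and breakdown, 26 of 33 were tested and 0 passed. Their median was 0.11, with 18 above and 8 below 0. Anpep, an aminopeptidase that cleaves the dipeptide left by gamma-glutamyltransferase, had 100.3 and 81.9 in siNEG and 153.1 and 131.2 in siGPR17 OPCs, a difference of 0.65 (SE 0.15, adjusted p = 0.222 in limma). Gpx2, another glutathione peroxidase, lay on the other side of 0, at -0.64 (SE 0.18, adjusted p = 0.244 in limma). Glrx, the cytosolic glutaredoxin, had 2118 and 2445 in siNEG and 1694 and 1700 in siGPR17 OPCs, a difference of -0.42 (SE 0.11, adjusted p = 0.236 in limma). These and Gpx8, at -0.24, were the 4 genes of the list with an unadjusted p under 0.05, out of 26 tested, where 16.2% of all genes had one. The difference of Gpx2 was -0.29 after normexp, and that of Gpx8 was -0.11 with spike-in scaling.

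Glutathione transferases join glutathione to electrophiles. Of 22 genes 16 were tested, 0 passed, and their median was 0.06. Gsto2 differed by 0.40 (SE 0.11, adjusted p = 0.250 in limma), or by 0.23 after normexp. Mgst1, a membrane-bound transferase, had 29.8 and 36.4 in siNEG and 23.2 and 15.0 in siGPR17 OPCs, a difference of -0.82 (SE 0.25, adjusted p = 0.265 in limma), which was -0.12 after normexp, and it was well above background on 1 of the siGPR17 arrays.

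Enzymes against superoxide and peroxide and the thioredoxin system had 20 of 22 genes tested, 0 past the thresholds and a median of 0.08. Txnip, which binds and inhibits thioredoxin, had signals of 191.9 and 139.8 in siNEG and of 291.9 and 325.6 in siGPR17 OPCs, a difference of 0.91 (SE 0.19, 95% interval 0.40 to 1.43, adjusted p = 0.212 in limma), a fold of 1.88. Txnip passed both thresholds after normexp, with an adjusted p of 0.0426, and with the trend and robust options of limma, with an adjusted p of 0.0417. Ccs, the copper chaperone of superoxide dismutase, differed by 0.39 (SE 0.098, adjusted p = 0.234 in limma), and Msra, a methionine sulfoxide reductase, by -0.31 (SE 0.10, adjusted p = 0.283 in limma), or by -0.18 with spike-in scaling.

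Hmox1 belongs to heme metabolism as well, where 20 of 23 further genes were tested, 0 passed, and the median was 0.03. Ireb2, the iron regulatory protein, differed by 0.36 (SE 0.084, adjusted p = 0.218 in limma), and Tfrc, the transferrin receptor, by 0.30 (SE 0.088, adjusted p = 0.260 in limma). Uros, an enzyme of heme synthesis, differed by 0.28. Ireb2, Tfrc and Uros were the 3 of 20 tested genes with an unadjusted p under 0.05 in limma. All 3 had more signal in siGPR17 OPCs, where 7.43% of all genes had such a p with more and 8.73% with less signal.

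Gpx4 is a selenoprotein, and 16 of 17 genes of selenoprotein synthesis and lipid peroxidation were tested, 0 past the thresholds, with a median of -0.01. Sephs2, which makes the selenium donor, differed by 0.32 (SE 0.10, adjusted p = 0.267 in limma). Selenop, a secreted selenium carrier, had 76.5 and 67.0 in siNEG and 54.7 and 45.5 in siGPR17 OPCs, a difference of -0.52 (SE 0.14, adjusted p = 0.243 in limma), which was -0.17 after normexp. Aifm2, which reduces coenzyme Q against lipid peroxidation, differed by -0.44 (SE 0.11, adjusted p = 0.232 in limma) on its brightest probe, which gave -0.18 after normexp, and by -0.03 on the other.

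**Figure D5:**
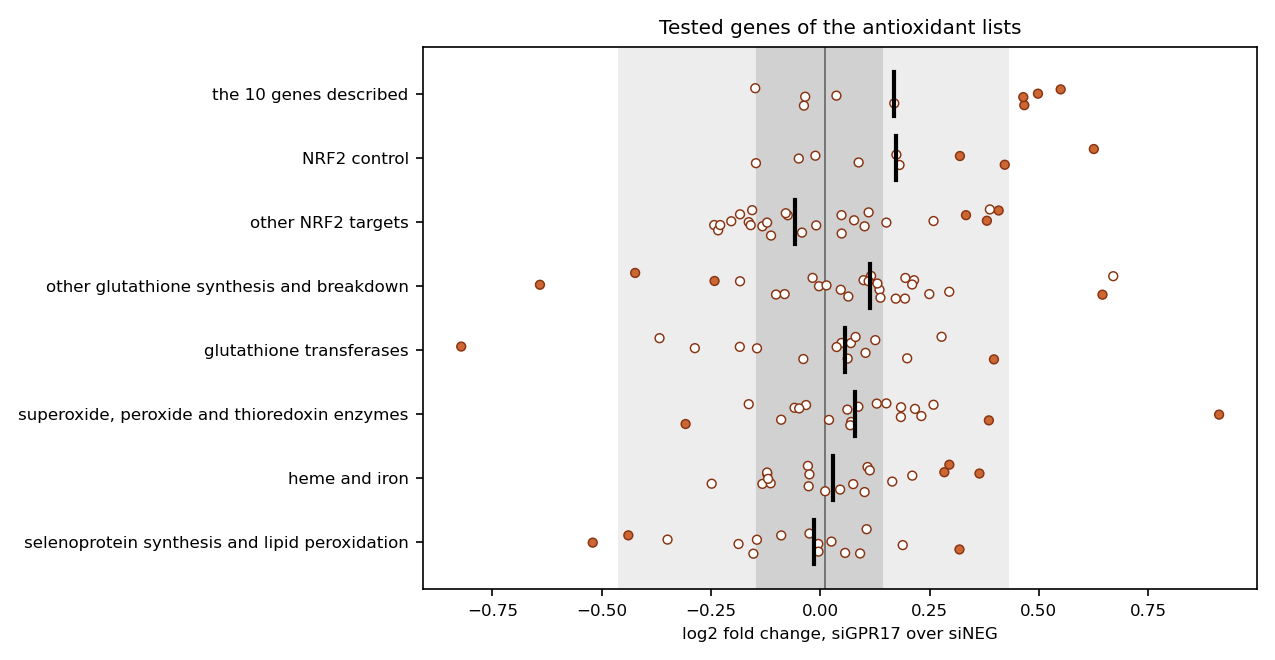
Difference of each tested gene of the antioxidant lists (horizontal axis, log2 of siGPR17 over siNEG), filled where the unadjusted p is under 0.05 and with a vertical bar at the median of the list. The thin line is the median of all 11656 tested genes, the dark band spans their 25th to 75th percentile and the light band their 5th to 95th, and 4 of the 10 genes described lie beyond the light band on its upper side.

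The cultures carried the markers of their lineage, and all 11 oligodendrocyte lineage markers read here were well above background on every array. Their summed signal, of which Mbp was the largest part, was 493816 and 565946 in siNEG and 551383 and 567325 in siGPR17 OPCs. Mbp differed by 0.32, Mog by -0.67 and Cspg4 by -0.48, each with an unadjusted p under 0.05 in limma. The other probe gave 0.45 for Mbp and -0.27 for Mog, and 7 of the 11 markers lay below 0. None of the markers of other cell types passed the thresholds, and their lowest adjusted p in limma was 0.209, for Aqp4. Of 9 tested astrocyte markers 4 had an unadjusted p under 0.05 with less signal in siGPR17 OPCs, Aqp4 at -1.35, Gfap at -0.61, Slc1a3 at -0.37 and Slc4a4 at -0.31, where 8.73% of all genes had such a p with less signal. A second probe of Slc4a4 gave 0.53. The other 5 included 3 above 0, Gja1 at 0.33, Aldh1l1 at 0.27 and Fgfr3 at 0.23, and the summed signal of the list, mostly Aldoc, ran from 116453 to 131207 in siNEG and from 118958 to 120187 in siGPR17 OPCs. Of 7 tested neuronal markers 7 lay below 0, 3 of them with such a p, where 52% of all genes lay above 0, with sums of 7037 and 8331 in siNEG and of 6817 and 6556 in siGPR17 OPCs. Of 9 tested microglial markers 8 lay below 0, and 2 had such a p, Aif1 at -0.56 and P2ry12 at -0.32. The summed signal of this list was 4028 and 2714 in siNEG and 2728 and 3181 in siGPR17 OPCs. Its largest part was Cx3cr1, at 2512 and 1241 on the siNEG arrays. Csf1r, Ptprc and Cd74 were not well above background on any array. Endothelial, fibroblast and mural markers summed to 582 and 440 in siNEG and to 613 and 599 in siGPR17 OPCs, and Cldn5, Pecam1, Dcn, Lum, Pdgfrb and Rgs5 were not well above background on any array. The part of these marker differences in the differences of the glutathione and NRF2 genes was not tested.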

How the data were processed

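RNA of 2 siNEG and 2 siGPR17 samples was measured on one-color Agilent arrays. The authors deposited the scanner intensities of each spot from Feature Extraction (version 10.7.3.1 per the submitters' processing notes), already corrected for background by that software and not normalized between arrays. Here, control spots and spots flagged as outliers were left out, spots of a probe were averaged on the log2 scale, and the 75th percentile of each array was subtracted. The 28016 of 45565 probes well above background on at least 2 of 4 arrays were tested with limma 3.58.1 (lmFit, eBayes) under R 4.3.3, two-sided, with Benjamini-Hochberg adjustment over all of them. The code was tested on simulated data. The brightest tested probe represents a gene, and linear signals are normalized values times one common factor. Probes were named by RefSeq accession through a gene table of GRCr8, which named 21093 probes. Named are every gene of the set with all its probes, Gpr17, the NRF2 control genes, and of each other list at most the 2 highest and 2 lowest differences with an unadjusted p under 0.05. The result of 1 lineage marker is not reported here. The genes and lists were chosen with earlier results of these data known. Alternatives were normexp with an offset of 50 on spot medians, since spot means were not used here, quantile, median and spike-in scaling, other filters on dim probes, the methods' t-test, limma with trend and robust options, a replicate block, the mean over tested probes and leaving out each array.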

Additional observations from a re-analysis of the deposited data

How the results depend on the processing

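Counted by the brightest probe, and so without the dimmer probe of Ggt1, no setting put a gene of the set past both thresholds. Gss and Hmox1 in 2 settings and Ggt1 in 1 had an adjusted p under 0.07 but, with a fold under 1.5, did not pass both thresholds. Probes past them numbered 1 as reported, 247 with normexp, 420 with the trend and robust options, and 0 with spike-in scaling, no filter on low signals, a filter on all 4 arrays, the methods' t-test, the replicate block, and with each array left out (0 to 0). Spike-in scaling subtracted 1 value from each array, so every difference moved by the same amount. The median of all tested probes went from 0.0094 to 0.14 on the log2 scale, and differences under this scaling are read relative to that. The median of the set, 0.17 as reported, was 0.30 with spike-in scaling, 0.32 with no filter on dim probes, where Gclm enters, and 0.16 to 0.27 with 1 array left out. Genes of the set with an unadjusted p under 0.05 were 2 with the methods' t-test. Gpr17 passed the thresholds with normexp, at -0.66, and with the trend and robust options, at -0.78, and ran from -0.80 to -0.77 with 1 array left out. With spike-in scaling Gpx1 (0.091), Nqo1 (0.094), Bach1 (0.079) and Bach2 (0.12) were above 0 but stayed below the 0.14 of all tested probes. Signs turned for Bach1 (0.080) and Bach2 (0.0078) with normexp. Without siNEG replicate 1 they turned for Gclc (-0.046) and Nqo1 (0.16), without siNEG replicate 2 for Gsr (0.19), Gpx1 (0.00018), Bach1 (0.064) and Bach2 (0.048), without siGPR17 replicate 1 for Nqo1 (0.27) and Bach1 (0.12), and without siGPR17 replicate 2 for Bach2 (0.022). With 1 array left out the lowest values were -0.49 for Gsr, -0.075 for Gpx1, -0.34 for Nqo1, -0.22 for Bach1 and -0.071 for Bach2, and the highest for Gclc was 0.12. The cause of the changes of sign with normexp or with 1 array left out was not tested. Same-numbered arrays did not deviate together (correlation -0.07 across tested probes), so they share only a number. With the replicate block 4 genes of the set had an unadjusted p under 0.05, as reported. Signal over background limits Gclm, the second probe of Slc7a11 and the dim probe of Mgst1.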
